A study of Glycine max with 10 samples.

Results

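The FLOWERING LOCUS T (FT) family of soybean (Glycine max) encodes small phosphatidylethanolamine-binding proteins, of which the flower-promoting ones are known as florigens. The 10 FT copies with a published gene ID were taken from a table of 56044 genes: FT2a (Glyma.16G150700.Wm82.a2.v1), FT2b (Glyma.16G151000.Wm82.a2.v1), FT5a (Glyma.16G044100.Wm82.a2.v1), FT3a (Glyma.16G044200.Wm82.a2.v1), FT3b (Glyma.19G108100.Wm82.a2.v1), FT5b (Glyma.19G108200.Wm82.a2.v1), FT1a (Glyma.18G298900.Wm82.a2.v1), FT1b (Glyma.18G299000.Wm82.a2.v1), FT4 (Glyma.08G363100.Wm82.a2.v1) and FT6 (Glyma.08G363200.Wm82.a2.v1). The rule names them by ID and sets no threshold on a measured value, though earlier results of these data were known when they were chosen. Pods of 10 numbered soybeans grown in fields were taken 18 days after flowering, and their RNA was sequenced. The labels give a high pod shattering force to soybeans 015, 018, 044, 060 and 071 (high_force) and a low one to soybeans 038, 055, 072, 092 and 109 (low_force). No cultivar, genotype or treatment is named, and it is not said whether a number stands for a plant, a line or a pool. P-values therefore measure the spread between these 10 libraries.

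In plants FT protein is made in leaf veins and moves to the shoot tip, where it joins the bZIP factor FD and switches on floral MADS-box genes. In soybean FT2a and FT5a are known as the main promoters of flowering, while FT1a and FT4 are known to delay it. The E1 genes, legume repressors, keep FT2a and FT5a low in long days, downstream of phytochrome A and the clock. TFL1 proteins such as Dt1 are relatives of FT with the opposite action. The FT copies lie in clusters. In the RefSeq gene table (Glycine_max_v4.0), whose symbols matched 9 of the 10 members and placed all 9 on the chromosome named in the ID, FT3B and FT5B on chromosome 19 had 0 genes between them, as had FT1A and FT1B on chromosome 18. FT5A and FT3A on chromosome 16 had 2 genes between them, and FT2A and FT2B on the same chromosome had 1. FT4 had no symbol of that name in the table, and its ID places it on chromosome 8, as does that of FT6.

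Library totals ran from 3779756 to 13298201 counts. After TMM scaling (trimmed mean of M-values), low_force 055 had an effective depth of 0.922 M counts, against 4.35 M to 20.1 M in the other libraries, and 78.9% of its counts fell on chromosome 13 genes. The upper limit set by a count of 0, taken as 3 counts, is 3.26 CPM (counts scaled to a common library size of 1 M, TMM-normalised) in low_force 055 and 0.149 to 0.689 CPM in the other libraries, for counting error only. The pod wall genes SHAT1-5 and NST1A, taken as markers of the labelled tissue, summed to 43.0 to 68.6 CPM. The 5 seed markers Gy1, Gy4, CG-alpha-prime, Le1 and KTI3 summed to 13262 CPM in low_force 109 and to 0.796 to 140.8 CPM elsewhere, with Le1 at 0 counts in high_force 015 and a count of every marker in each other library.

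Of the 10 copies, 3 had counts in all 10 pod libraries, 3 in some and 4 in none. FT2a, FT5a and FT3a were counted in every library, FT3b in 8, FT5b in 5 and FT6 in 1. FT2b, FT1a, FT1b and FT4 had 0 counts throughout, so that a level above 0.149 CPM in the deepest library, high_force 044, and above 3.26 CPM in low_force 055 was not seen. The single FT6 count lay in low_force 092. FT2b was thus without a count, while FT2a took 1923 of the 3961 counts of the family. FT5a took 1187, FT3a 620, FT3b 150 and FT5b 80. Counts are not scaled to gene length, so they give no order of levels between copies.

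**Figure D1:**
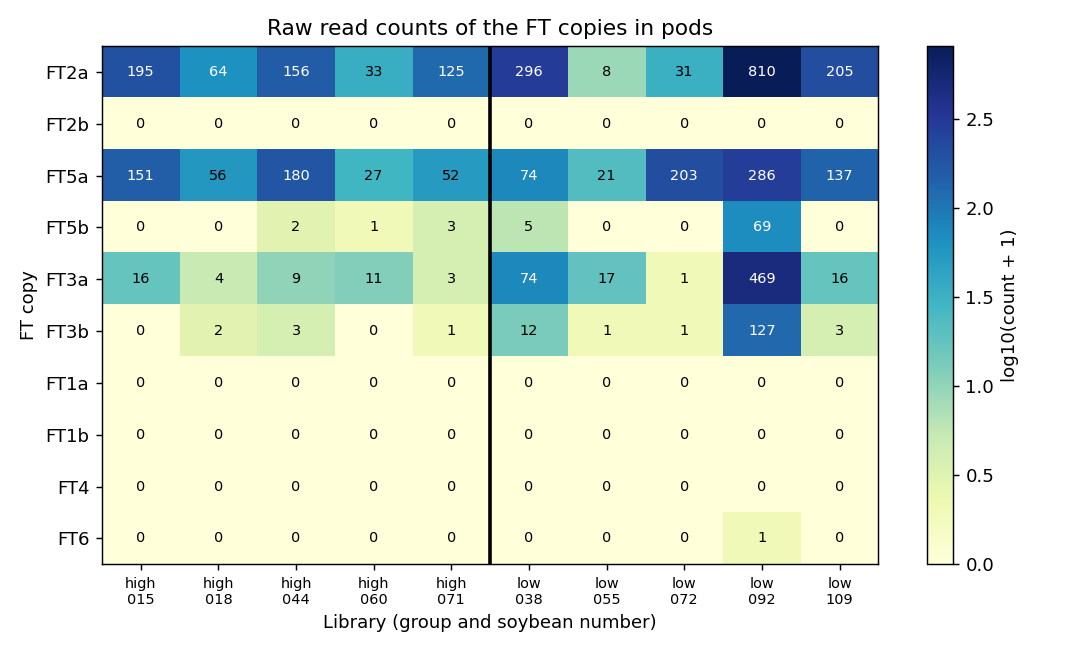
Raw read counts of the 10 FT copies (rows) in the 10 pod libraries (columns, high_force left of the line and low_force right), with colour on a log10(count + 1) scale. FT2a, FT5a and FT3a have counts in every column, while 127 of the 150 FT3b counts and 69 of the 80 FT5b counts lie in low_force 092.

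FT2a, a promoter of flowering, varied 13.05-fold among the libraries. Its level in high_force was 32.2 CPM in soybean 015, 11.99 in 018, 7.76 in 044, 6.20 in 060 and 10.4 in 071. In low_force it was 34.4 CPM in soybean 038, 8.68 in 055, 7.12 in 072, 80.8 in 092 and 20.7 in 109. The groups overlapped: low_force 055 and 072 lay among the lower high_force libraries, and high_force 015 lay just under low_force 038. The value of low_force 055 rests on 8 counts.

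FT5a, the second promoter, peaked in another library. In high_force it stood at 24.9 CPM in soybean 015, 10.5 in 018, 8.96 in 044, 5.07 in 060 and 4.33 in 071. In low_force it stood at 8.59 CPM in soybean 038, 22.8 in 055 (on 21 counts), 46.7 in 072, 28.5 in 092 and 13.8 in 109. The groups again overlapped, and low_force 072, the lowest of its group for FT2a, was the highest of all for FT5a. FT2a and FT5a had a Pearson r of 0.30 across the 10 libraries (log2 CPM) and of 0.09 across 9 without low_force 092, a description with no test.

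FT3a, which lies close to FT5a on chromosome 16, had the widest range in fold of the 3 copies counted everywhere. It spanned 203.7-fold, with the lowest value on 1 count. In high_force it reached 2.64 CPM in soybean 015, 0.749 in 018, 0.448 in 044, 2.07 in 060 and 0.250 in 071, on 3 to 16 counts. In low_force it reached 8.59 CPM in soybean 038, 18.4 in 055, 0.230 in 072, 46.8 in 092 and 1.61 in 109, on 1 to 469 counts. Low_force 038, 055 and 092 were above every high_force library, but low_force 109 and low_force 072, the latter on 1 count, were not. FT3a had a Pearson r of 0.66 with FT2a over 10 libraries, and of 0.38 over 9 without low_force 092.

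FT3b and FT5b, neighbours on chromosome 19 and the chromosome 19 counterparts of FT3a and FT5a, had most of their counts in low_force 092. FT3b had 127 counts there (12.7 CPM), 12 in low_force 038 (1.39 CPM) and 0 to 3 in each other library. FT5b had 69 counts there (6.89 CPM), 5 in low_force 038, and 0 to 3 in each other library. Low_force 092 thus held 84.7% of FT3b counts and 86.3% of FT5b counts, against 75.6% for FT3a, 42.1% for FT2a and 24.1% for FT5a. It lay 9.10-fold above the next library for FT3b and 11.9-fold for FT5b, against 2.54-fold for FT3a and 2.35-fold for FT2a. The shallow low_force 055 limits this: its 1 FT3b count makes 1.09 CPM, and its 0 counts of FT5b allow up to 3.26 CPM.

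Low_force 092 was often the highest library for other genes too. Of 30226 genes tested, 23.6% had their highest level in it, more than in any of the other 9 libraries. Another 16.9% had it in low_force 055. Genes at least 4-fold above every other library made up 0.493% in low_force 092, 0.691% in low_force 055 and at most 0.0761% elsewhere. These shares cover only genes that passed the filter on low counts. FT3b and FT5b did not pass it, so the shares give no background for those copies. Whether what sets low_force 092 apart for these genes bears on the FT copies was not tested.

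The make-up of the family within a library does not depend on how libraries are scaled. FT2a made up 80.0% of FT2a plus FT5a counts in low_force 038 (95% exact binomial interval 75.6% to 84.0%, counting error only) and 13.2% in low_force 072 (9.18% to 18.3%). The high_force libraries lay between, from 46.4% in soybean 044 to 70.6% in 071. The remaining low_force libraries were at 27.6% in 055 (12.7% to 47.2%, of only 29 counts), 73.9% in 092 and 59.9% in 109. The mean was 56.3 ± 8.85% in high_force against 50.9 ± 29.2% in low_force (SD, n = 5 each). The difference of 5.41 percentage points was within the spread between libraries (two-sided exact permutation test over all assignments of 10 libraries to 5 and 5, p = 0.698, where the smallest possible p is 0.00794), and it turned to -0.43 points without low_force 055 and to -4.01 without low_force 072.

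**Figure D2:**
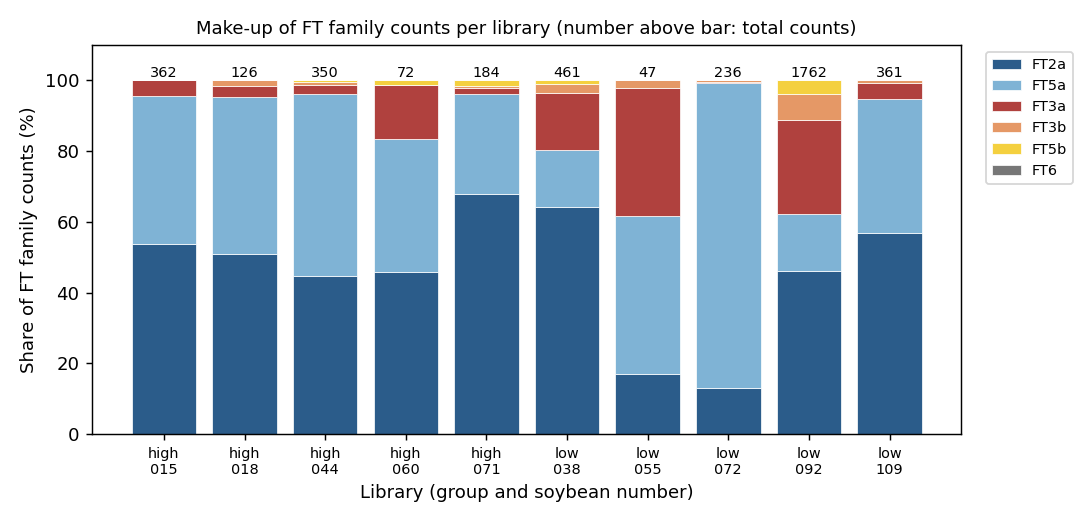
Share of FT family counts (%) held by each copy in each library, with the total family counts above each bar. FT2a and FT5a together hold most of the counts in every bar of both groups, and low_force 072 is 86.0% FT5a and 13.1% FT2a. FT3a, FT3b and FT5b together make up 37.7% in low_force 092 and 38.3% in low_force 055, the latter of only 47 counts. They make up 19.7% in low_force 038 and 16.7% in high_force 060.

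The ratio of FT3a to FT5a counts varied between libraries. FT3a made up 0.490% of FT3a plus FT5a counts in low_force 072 (95% exact interval 0.0124% to 2.70%) and 62.1% in low_force 092 (58.6% to 65.6%). The share averaged 11.1 ± 10.2% in high_force against 33.6 ± 26.6% in low_force (SD, n = 5 each), a difference within the spread between libraries (two-sided exact permutation p = 0.127, unadjusted). The groups overlapped: the highest share of high_force, 28.9% in soybean 060, was above those of low_force 072 and 109. Low_force 109 was at 10.5% (95% exact interval 6.10% to 16.4%), close to high_force 015 at 9.58%. Low_force 038, 055 and 092 were above every high_force library, with 055 on only 38 counts of FT3a plus FT5a.

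The counterparts on chromosomes 16 and 19 may share reads, and the sources used here do not give how reads matching several genes were counted. FT5b made up 19.4% of FT5a plus FT5b counts in low_force 092 (95% exact interval 15.4% to 23.9%) but 0 of 203 in low_force 072, which allows up to 1.80%, and 0 of 151 in high_force 015, up to 2.41%. FT3b made up 21.3% of FT3a plus FT3b counts in low_force 092 (18.1% to 24.8%) and 14.0% in low_force 038 (7.42% to 23.1%), whose intervals overlap. Whether some counts of FT3b or FT5b come from reads of FT3a or FT5a was not tested.

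The question of the design is whether expression differs with shattering force, and no FT copy passed the test between the groups. FT2a was at 13.7 ± 10.6 CPM in high_force against 30.3 ± 30.3 CPM in low_force, FT5a at 10.8 ± 8.33 and 24.1 ± 14.8 CPM, and FT3a at 1.23 ± 1.06 and 15.1 ± 19.1 CPM (SD, n = 5 each). In pods, fewer cells expressing a gene and less of its RNA per cell cannot be told apart. The log2 fold changes (high_force minus low_force) were -1.19 (SE 0.64) for FT2a, -1.17 (SE 0.54) for FT5a and -3.72 (SE 1.09) for FT3a.

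These 3 members passed the filter on low counts, and 0 of them had an adjusted p under 0.05 in edgeR's quasi-likelihood test, adjusted by Benjamini-Hochberg over all 30226 genes tested (adjusted p = 0.816, 0.796 and 0.796), where 0% of genes were called. At an unadjusted p under 0.05, which 6.26% of all genes tested reached (1893 genes), edgeR had 1 of the 3, FT3a. Over the whole table DESeq2 called 25 genes (0.0535%) and limma-voom 0, with no FT copy among them (DESeq2 adjusted p = 0.0847 for FT3a). Two-sided exact permutation tests of log2 CPM were run, unadjusted, for every listed gene with a count, the pathway genes and markers included. Among the 6 members with a count, p was 0.325 for FT2a, 0.0952 for FT5a and 0.127 for FT3a. It was 0.0238 for FT3b, 0.563 for FT5b and 1.0 for FT6, which rests on 1 count. The value for FT3b also rests on few counts, with 0 to 3 in every library but low_force 038 and 092. Its 1 count in low_force 055 makes 1.09 CPM, under the 3.26 CPM limit of that library. The order of the libraries with 0 to 3 counts was not detectable at this depth.

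Single libraries carried much of each difference. Without low_force 092 the log2 fold change of FT2a was -0.43 and that of FT3a -2.43, and without low_force 072 that of FT5a was -0.76. Without high_force 015, the highest of its group for all 3 copies, FT2a had -1.78, FT5a -1.73 and FT3a -4.27. The median of all genes tested was -0.01. With libraries scaled by size only, which moved that median to 0.54, FT3a had -3.17 and passed in edgeR (adjusted p = 0.0215, where 0.205% of genes were called), and FT5a had -0.57.

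**Figure D3:**
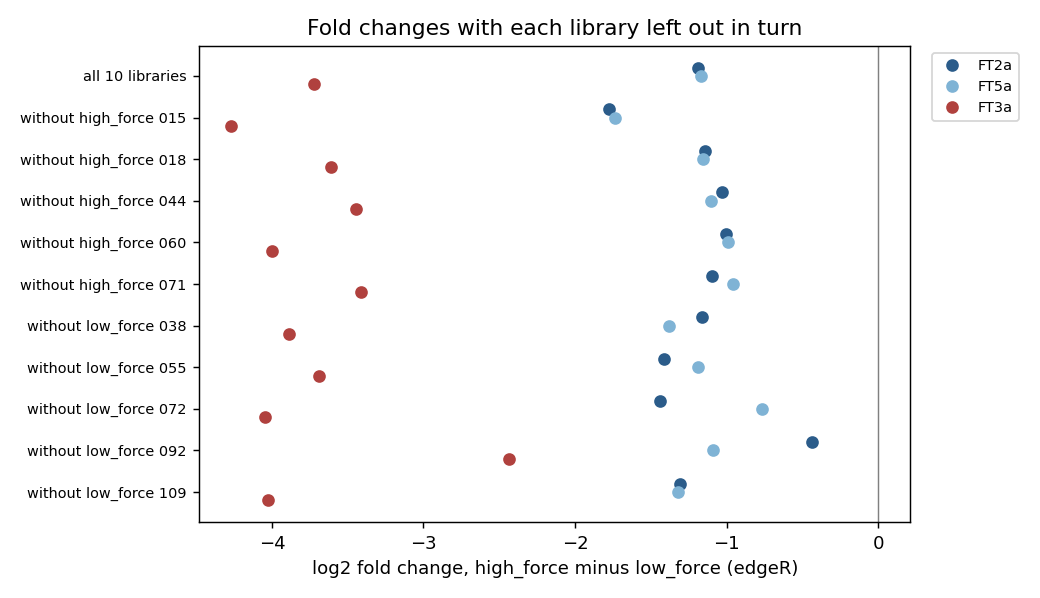
Log2 fold changes (high_force minus low_force, edgeR) of FT2a, FT5a and FT3a with all 10 libraries and with each left out in turn. Every value is below 0, from -4.27 for FT3a without high_force 015 to -0.43 for FT2a without low_force 092.

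FT3b and FT5b had too few counts to pass the filter and were not in that fit. FT3b was at 0.121 ± 0.155 CPM in high_force against 3.14 ± 5.35 CPM in low_force, and FT5b at 0.107 ± 0.112 and 1.49 ± 3.03 CPM (SD, n = 5 each). Without low_force 092 the low_force levels were 0.753 ± 0.576 CPM for FT3b and 0.145 ± 0.290 CPM for FT5b (SD, n = 4). With no filter, edgeR gave log2 fold changes of -4.60 for FT3b and -3.64 for FT5b (adjusted p = 0.612 and 0.640 over 46734 genes), and DESeq2 gave adjusted p = 0.0847 for FT3b and none for FT5b.

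**Figure D4:**
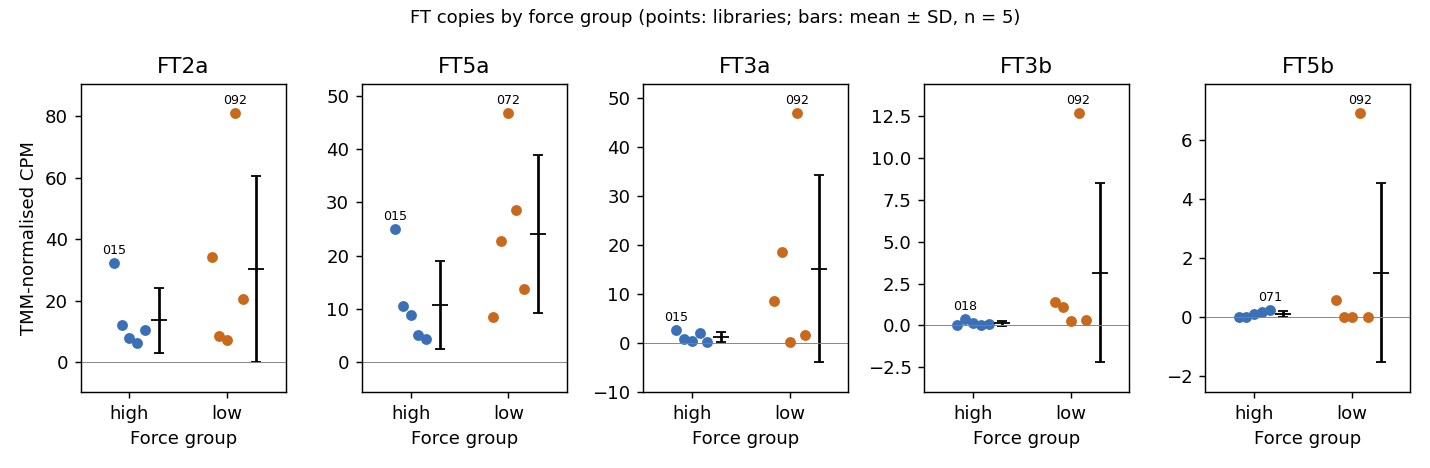
TMM-normalised CPM of 5 FT copies by force group, 1 point per library, with mean ± SD (n = 5) beside the points and the highest library of each group named. Low_force 092 is highest for FT2a, FT3a, FT3b and FT5b, low_force 072 for FT5a, and the groups overlap for each copy.

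The libraries also differ in the morning clock gene LHY1a, which was at 646.7 to 1041 CPM in high_force 015 and low_force 055 and 072, and at 11.8 to 19.3 CPM in the other 7. FT5a was at 22.8 to 46.7 CPM in the same 3 and at 4.33 to 28.5 CPM in the other 7, of which only low_force 092 was above 22.8 CPM. That 22.8 CPM is low_force 055, on 21 counts at an effective depth of 0.922 M, so this edge is imprecise. FT2a did not follow this split, at 7.12 to 32.2 CPM in the 3 libraries and 6.20 to 80.8 CPM in the other 7. The CONSTANS-like genes COL1a and COL1b, light and clock regulated factors that act on FT genes, did: COL1b was at 49.3 to 85.7 CPM against 1.20 to 3.48 CPM, and COL1a at 16.8 to 25.2 CPM against 0.504 to 1.69 CPM. The split was read from the data and was not tested, nor was its part in the FT5a level. Without these 3 libraries FT2a had a log2 fold change of -2.32, FT5a -1.24 and FT3a -4.65, and none passed in edgeR (adjusted p = 0.377, 0.424 and 0.406).

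**Figure D5:**
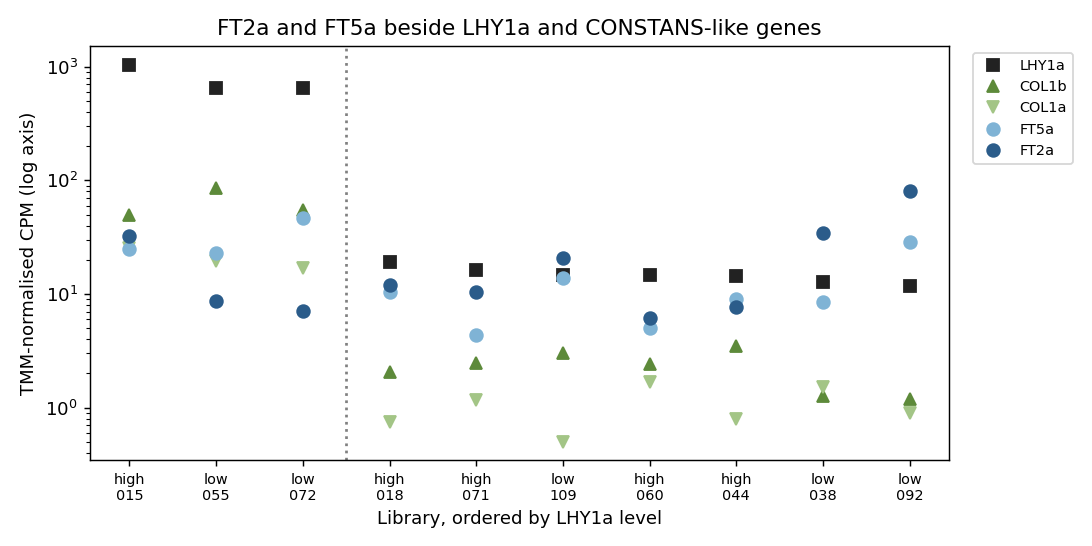
TMM-normalised CPM (log axis) of LHY1a, COL1a, COL1b, FT5a and FT2a in the 10 libraries, ordered by LHY1a, with a dotted line after the 3 libraries high in LHY1a. COL1a and COL1b are high to the left of the line, and FT2a is highest in low_force 092 at 80.8 CPM. FT5a is above 22 CPM left of the line, on only 21 counts in low_force 055, and in low_force 092.

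Of 31 other genes of the flowering pathway, 28 had a count, 20 were tested, and 0 rose and 0 fell in high_force in edgeR (smallest adjusted p = 0.830). Their log2 fold changes were positive for 9 and negative for 11, with a median of -0.19 beside -0.01 over all genes tested. The listed E1 genes were nearly without counts: E1 had 0 counts in all libraries, E1Lb 1 count in high_force 015, and E1La 5 counts, all in low_force 092. All 4 phytochrome A genes were counted in every library, with E4 at 40.7 ± 7.83 CPM in high_force against 33.7 ± 6.16 CPM in low_force, PHYA1 at 34.3 ± 11.2 and 33.2 ± 7.25 CPM, and E3 at 10.01 ± 2.29 and 7.47 ± 2.72 CPM (SD, n = 5 each). Of the 9 clock genes tested, LHY1a had a log2 fold change of -0.27 (SE 1.496) and LHY2b one of -0.39 (SE 1.95). The GIGANTEA gene E2 was at 173.7 ± 36.5 and 155.5 ± 31.3 CPM (SD, n = 5 each). COL2b had 0 counts and COL2a 1, while COL1b had a log2 fold change of -1.20 (SE 1.28) and COL1a one of -0.23 (SE 1.23).

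FDL19, a bZIP partner of FT proteins, was at 8.98 ± 1.61 CPM in high_force against 11.7 ± 3.68 CPM in low_force (SD, n = 5 each), with a log2 fold change of -0.42 (SE 0.27). Of the 8 MADS-box genes that act with or after FT, 4 were tested. Tof5, of the FRUITFULL type, was at 45.7 ± 6.09 and 45.2 ± 7.75 CPM (SD, n = 5 each). The APETALA1 genes AP1a and AP1c were at 1.27 ± 1.23 and 0.917 ± 1.06 CPM in high_force, against 1.81 ± 1.27 and 1.45 ± 1.007 CPM in low_force (SD, n = 5 each). SOC1a had at most 7 counts in any library, SOC1b at most 3 and Dt2 at most 1, and their exact permutation p was 0.929, 0.444 and 0.444 (two-sided, unadjusted).

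TFL1a, a relative of FT of the antagonist type, was the only listed antagonist with counts, as Dt1 had 0 in all libraries. TFL1a had 9, 3, 10, 8 and 3 counts in high_force 015, 018, 044, 060 and 071, and 0, 0, 0, 2 and 2 in low_force 038, 055, 072, 092 and 109. The level was 0.859 ± 0.591 CPM in high_force against 0.0802 ± 0.110 CPM in low_force (SD, n = 5 each), without overlap between the groups. Of the 46734 genes with a count, 0.588% were likewise without overlap and higher in high_force. Genes without overlap and higher in low_force are not in that share. Counts of 0 allow up to 0.348 CPM in low_force 038, 0.689 in 072 and 3.26 in 055, above several high_force levels, so the order of these libraries was not detectable at this depth. The exact permutation p was 0.00794 (two-sided, unadjusted, the smallest possible), the lowest among all the listed genes so tested. TFL1a did not pass the filter, and without a filter edgeR gave a log2 fold change of 2.80 (adjusted p = 0.616).

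Likeness of pattern was measured by Pearson's r of log2 CPM over the 10 libraries with each of the other 30225 genes tested, for FT2a and FT5a, the members with at least 5 counts in at least 8 libraries. The files and the reference table pair no name with the nearest IDs. FT2a was most like Glyma.05G042200 (r = 0.93, Spearman's rho 0.95, r = 0.97 without low_force 038 and 092) and Glyma.13G180100 (r = 0.93, rho 0.88, r = 0.77 without them). FT5a was most like Glyma.13G110500 (r = 0.96, rho 0.96, r = 0.98 without high_force 071 and low_force 072) and Glyma.07G222500 (r = 0.96, rho 0.96, r = 0.93 without them). These are the highest of many values over few libraries. Pearson's r takes no account of the size of the changes. Glyma.13G180100 ranged from 23.0 to 34.0 CPM and Glyma.13G110500 from 12.2 to 27.9 CPM. Glyma.05G042200 ranged from 0.919 to 5.39 CPM and Glyma.07G222500 from 3.58 to 22.0 CPM. By the same measure FT5a ranked 8495 among the genes like FT2a, and FT3a ranked 1273.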

How the data were processed

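The file the authors deposited holds unnormalised read counts, whole numbers for each gene, in 1 column per sample. Tools named in the submitters' processing notes are edgeR, Subread 1.6.2, featureCounts, TopHat2 and Trim Galore 0.4.4, without settings. The genome build, strand setting and treatment of multi-mapping reads are not given in the sources used here, and gene IDs end in Wm82.a2.v1. Gene names were paired with IDs from published work, as recalled. The reference table (59048 genes) held 0 of the file's IDs.

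After filterByExpr and TMM scaling, edgeR 4.0.16 (glmQLFit and glmQLFTest, R 4.3.3) compared 5 high_force with 5 low_force libraries, with no covariate. SE was taken as the absolute log2 fold change over the root of the F statistic. P-values were adjusted by Benjamini-Hochberg across every gene tested, two-sided, with a threshold of 0.05. Log2 CPM uses a prior count of 2. Library totals limit precision, and intervals and the 3-count floor cover counting error only. The test was also run on counts simulated from the fitted dispersion trend. These counts hold no single library set apart by its levels, and no power for the FT copies is drawn from them.

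Alternatives were relative log expression scaling, library size only, no chromosome 13 genes, no filter, a filter of 1 CPM in 5 libraries, DESeq2 1.42.0, voom of limma 3.58.1, leaving out each library, and leaving out 3 libraries together. All 10 members are reported, with per-library values for those with at least 10 counts in a library. For each pathway list the rule names genes that pass and up to 3 others by mean CPM, and further listed genes appear beside counts. For likeness it names the 3 nearest genes, or at most 2 IDs where no description exists. The members and lists were chosen with earlier results of these data known.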

Additional observations from a re-analysis of the deposited data

Results flagged for a closer look

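Within groups of 5 libraries, 12 sets of values were searched for a library far from the others, and 3 were found. The sets were the CPM of 5 FT copies and the FT2a share, in each group. The rule picks about 1 in 20 sets by chance where values are normally distributed and sets are independent. CPM of copies with few counts are skewed and the sets share libraries, so whether 3 exceeds chance was not tested. FT2a in high_force 015 (32.2 CPM) stood far above the other high_force libraries, the next of which was at 11.99 CPM. FT3b in low_force 092 (12.7 CPM) and FT5b in low_force 092 (6.89 CPM) stood far above the other low_force libraries. Their nearest library was low_force 038 in each case.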

How the results depend on the processing

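The log2 fold changes of FT2a, FT5a and FT3a stayed below 0 under all 18 alternatives run. Leaving out 1 library at a time gave -1.78 to -0.43 for FT2a, -1.73 to -0.76 for FT5a and -4.27 to -2.43 for FT3a. Only FT3a passed the threshold anywhere, with library size scaling (-3.17, adjusted p = 0.0215), where the median of all genes moved to 0.54. The cause was not tested. Over all genes, 0 were called in the main test, 62 with library size scaling, 25 with DESeq2, 0 to 1 with each library left out (1 without high_force 015, high_force 071 or low_force 055), and 2 without high_force 015, low_force 055 and low_force 072. The FT2a share of FT2a plus FT5a counts differed by -4.01 to 12.7 percentage points with each library left out, and was lower in high_force without low_force 055 (-0.43), without low_force 072 (-4.01) and without high_force 015, low_force 055 and low_force 072 (-14.9). No paired analysis was possible because the groups share no soybean number. Depth limits the copies with few counts: in low_force 055, 3 counts make 3.26 CPM.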
